A study of Ovis aries with 9 samples.

Results

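The genes described here are 10 protein-coding genes that are known to hold back or to release the onset of puberty, namely MKRN3, DLK1, LIN28B, EED, CBX7, YY1, SIRT1, CUX1, IRF2BPL and GABPA. They were taken by gene symbol out of the 21284 coding genes of the deposited table. Hypothalamic RNA of 9 Dolang ewes was sequenced with poly-A selection, with 1 library per animal and 3 animals at each of 3 stages. Prepubertal ewes (120 days old) refused the ram, pubertal ewes (130 days old) were in their first observed heat, and postpubertal ewes (150 days old) had become calm again. The ewes shared 1 station and its husbandry. Stage and age cannot be told apart. The values are FPKM (fragments scaled by transcript length and library size), which are relative levels per length, and the level of a gene is the sum over its RefSeq transcripts. Pieces of whole tissue were sequenced, so fewer cells of a type and less RNA per cell cannot be told apart.

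Puberty begins when neurons that secrete gonadotropin-releasing hormone are driven into stronger pulses by kisspeptin neurons of the hypothalamus. Before that, several brakes keep the kisspeptin gene silent. MKRN3 and DLK1 are imprinted genes that are active on the paternal copy, and their loss in people causes early puberty. LIN28B blocks the maturation of let-7 microRNAs and lies at a locus linked to the age of menarche. EED and CBX7 are Polycomb proteins that hold KISS1 chromatin closed in the prepubertal rat, and the deacetylase SIRT1 acts at the same promoter. YY1, CUX1 and IRF2BPL (also known as EAP1) are transcription factors of the upstream network, and GABPA is the DNA-binding subunit of an ETS family factor.

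The genes at the head of the pubertal axis were listed at low levels or at 0 in these samples. GNRH1 was listed at 0 in all 9 libraries, KISS1 reached at most 0.360 FPKM, and its receptor KISS1R at most 0.214. The peptides that kisspeptin neurons share with other cells were higher, with TAC3 reaching 3.49 and PDYN 7.35 FPKM. Of 18 hypothalamic marker genes, 8 stayed below 1 FPKM in every library, among them the hypothalamic transcription factors NKX2-1, RAX, SIM1, FEZF1 and NR5A1. The summed level of the 18 markers ranged from 30.8 to 176 FPKM, whereas 6 oligodendrocyte markers summed to 6204 to 14353 FPKM. The other 10 markers passed the filter. Among them, the transcription factor OTP was 4.91 FPKM in prepuberty 3, 4.78 in puberty 1 and at most 0.494 elsewhere. Over the 8 libraries other than puberty 2, the peptide SST ranged from 4.27 to 107 FPKM. CRH was 118 FPKM in prepuberty 1 and from 0.392 to 7.14 in the rest of these libraries. The peptides OXT (0.319 to 4.81), AVP (0.551 to 3.15) and HCRT (0.144 to 1.68) stayed below 5 FPKM in them. Markers of neighbouring tissue varied widely. TTR, which marks choroid plexus, ranged from 9.07 to 7594 FPKM, the highest in puberty 3, and PRL, which marks pituitary, from 0.0562 to 199.5 FPKM, the highest in postpuberty 1. POMC, which both hypothalamus and pituitary express, was 12.8 and 17.4 FPKM in those libraries. It was highest in puberty 2 (22.4 FPKM), where PRL was 2.65 FPKM, and ranged from 2.09 to 10.7 FPKM in the others. The part of such tissue in the results was not tested.

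Library puberty 2 stood apart from the others. Its coding genes summed to 377780 FPKM, against 228754 to 260446 in the other 8 libraries, and 1058 of 14238 tested genes were at 0 in it, against 52 to 151 elsewhere. Its Spearman correlation with the other libraries was 0.678 to 0.729, whereas the other pairs reached 0.849 to 0.954. For 8 of the 9 members tested (88.9%), puberty 2 held the lowest level of the 9 libraries, and so it did for 52.0% of all genes tested. The median ratio of puberty 2 to the median of the other 8 was 0.384 for these 9 members and 0.567 for all genes. Stage differences of the tested genes that involve puberty are therefore given with and without this library.

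**Figure D1:**
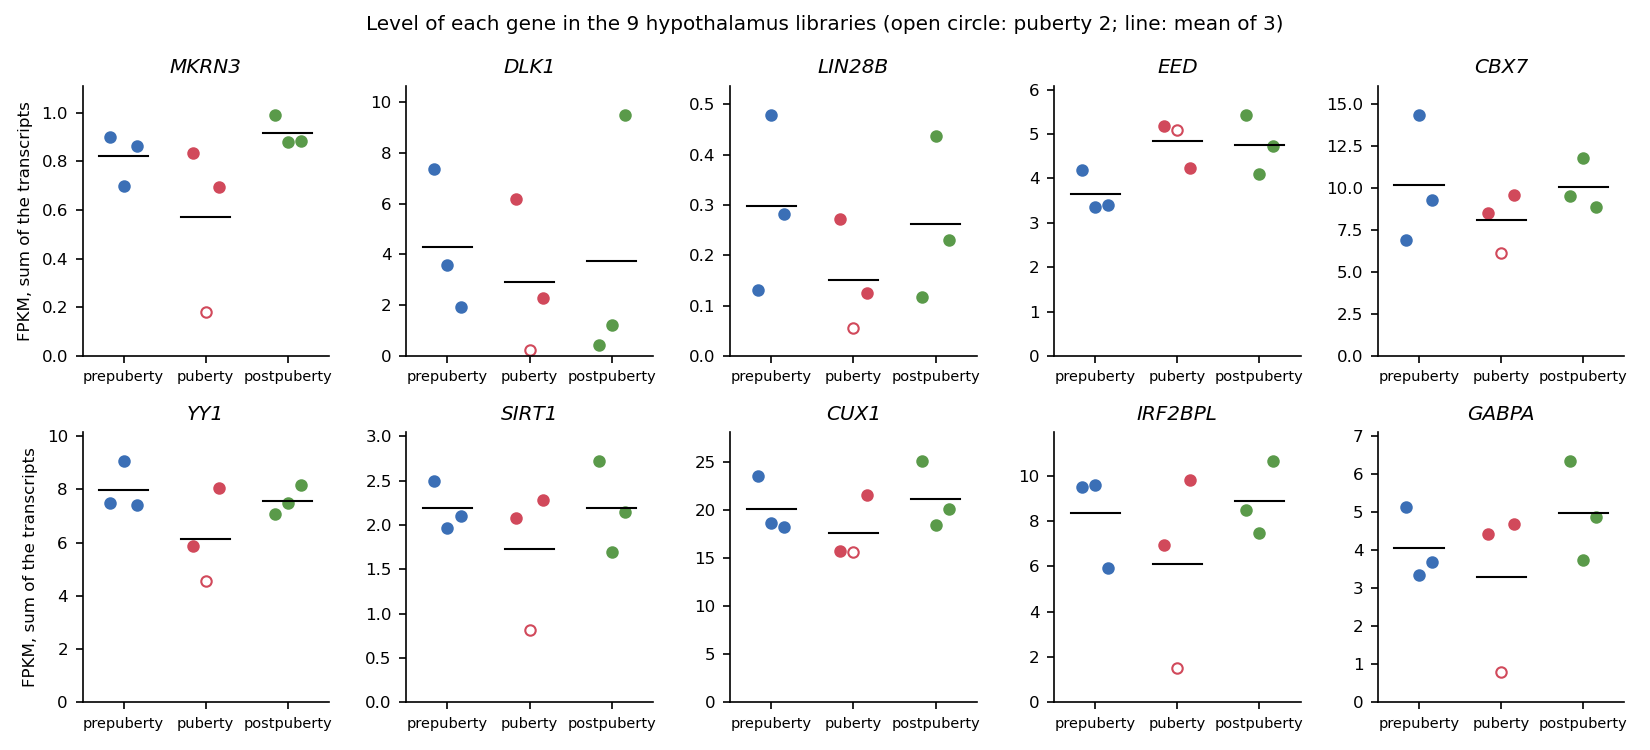
Level of each of the 10 genes in FPKM (vertical axis, from 0, scaled per gene) in the 3 libraries of each stage. Each circle is 1 ewe, the open circle is puberty 2 and the line is the mean of 3. Only EED has all puberty libraries above all prepuberty libraries, and puberty 2 is the lowest point in every panel but that of EED.

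In the plot of levels by stage, the genes spanned from below 1 to above 20 FPKM. CUX1 was the highest, with a mean of 20.1 FPKM over the 8 libraries other than puberty 2. It was followed by CBX7 (9.87), IRF2BPL (8.55), YY1 (7.58), GABPA (4.52), EED (4.33), DLK1 (4.07), SIRT1 (2.19), MKRN3 (0.843) and LIN28B (0.259). Only 3 of the 9 neighbouring pairs in this order did not overlap across the 8 libraries, namely CUX1 above CBX7, SIRT1 above MKRN3 and MKRN3 above LIN28B. YY1 was above GABPA in 8 of 8 libraries, although their ranges overlapped across animals. The other 5 pairs overlapped and were also in the reverse order in at least 1 library.

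MKRN3, an imprinted brake and a frequent genetic cause of early puberty, was low and even. Its single transcript lies at chr18:525017-533947 of the sheep build ARS-UI_Ramb_v3.0. It measured 0.900, 0.700 and 0.864 FPKM in prepuberty 1 to 3, 0.834, 0.181 and 0.693 in puberty 1 to 3, and 0.991, 0.878 and 0.884 in postpuberty 1 to 3. All postpuberty libraries lay above all puberty libraries, also without puberty 2, while prepuberty overlapped both. The stage means were 0.821 ± 0.107, 0.569 ± 0.344 and 0.918 ± 0.063 FPKM (SD, n = 3). Apart from puberty 2, MKRN3 had the lowest coefficient of variation of the 10 genes, 11.99% over the 8 libraries.

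No stage difference of MKRN3 passed the test. The prepuberty level exceeded the puberty level by a log2 fold change of 0.24 (SE 0.21, adjusted p = 0.838, limma with Benjamini-Hochberg adjustment over all genes), and by 0.05 (SE 0.15) without puberty 2. In the latter fit the 95% confidence interval ran from -0.31 to 0.41 on the log2(FPKM + 1) scale. For puberty against postpuberty the difference was -0.31 (SE 0.21, adjusted p = 0.780) with all libraries and -0.12 (SE 0.15) without puberty 2.

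DLK1, a Notch-like membrane protein of the second imprinted domain, was the most uneven of the genes. It lies at chr18:63266417-63274579. DLK1 measured 7.37, 3.60 and 1.93 FPKM in prepuberty 1 to 3, 6.20, 0.247 and 2.28 in puberty 1 to 3, and 0.450, 1.22 and 9.50 in postpuberty 1 to 3. Each stage held libraries of high and of low level, and all stages overlapped. Between the 8 libraries other than puberty 2 the level varied 21.1-fold, with a coefficient of variation of 80.0%, and the log2 SD stood at percentile 97.2. The animals of 1 stage thus differed more than the stage means, which were 4.30 ± 2.79, 2.91 ± 3.03 and 3.72 ± 5.02 FPKM (SD, n = 3).

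The stage comparison of DLK1 was correspondingly imprecise. The difference of prepuberty and puberty was 0.65 (SE 0.83, adjusted p = 0.840, limma) with all libraries and -0.01 (SE 0.86) without puberty 2. The interval of the latter, from -2.01 to 1.997, is wide enough to hold a change of 1 log2 unit, a doubling, in either direction. The hypothalamic markers varied as well. Their sum was 168 FPKM in prepuberty 1, 97.1 in puberty 1 and 176 in postpuberty 3, the 3 libraries with the highest DLK1, and 30.8 in postpuberty 1, which had the lowest of the 8. The order was not the same throughout, as prepuberty 2 had a sum of 116 with less DLK1 than puberty 1, and the sum of prepuberty 1 was 50.3 without CRH. Their part in the spread of DLK1 was not tested.

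RTL1, a retrotransposon-derived gene, is expressed from the paternal copy like DLK1 and lies 144.646 kb from it. RTL1 was high and low with DLK1 over the libraries, although not in the same order throughout. It measured 0.883, 0.276 and 0.385 FPKM in prepuberty 1 to 3, 0.665, 0.0157 and 0.312 in puberty 1 to 3, and 0.0403, 0.0639 and 0.943 in postpuberty 1 to 3. The 3 libraries with the highest DLK1 were also the 3 with the highest RTL1. In prepuberty 2, puberty 3 and prepuberty 3 the order was reversed, with DLK1 at 3.60, 2.28 and 1.93 FPKM and RTL1 at 0.276, 0.312 and 0.385. Over the 8 libraries other than puberty 2, Pearson's r of log2(FPKM + 1) was 0.951 (exact permutation p = 0.000645, adjusted p = 0.00645 over 10 relations with imprinted neighbours) and Spearman's rho was 0.905 (exact permutation p = 0.00456, adjusted p = 0.0456). Without the 2 libraries farthest from the median DLK1, r was 0.911. Libraries of all 3 stages enter this relation, with too few animals to compute it within a stage.

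No other gene of the domain had a relation with DLK1 that passed the adjustment. The maternally expressed long non-coding RNA GTL2, 88.444 kb from DLK1, ranged from 21.1 to 59.996 FPKM and gave an r of -0.07 (exact permutation p = 0.857), but -0.81 without the 2 libraries farthest from the median DLK1, so that its relation with DLK1 turned on those libraries. YY1, which lies 427.734 kb from DLK1 on the same chromosome, gave an r of 0.02 (exact permutation p = 0.963), and -0.34 without them. BEGAIN and DIO3, further members of the domain, gave r values of 0.31 and 0.14, with adjusted p = 0.727 and 0.933 by the exact permutation test, and -0.33 and 0.24 without the same libraries. The use of strand in the counting is not given in the sources used here, so reads of RTL1 and of transcripts antisense to it cannot be told apart.

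**Figure D2:**
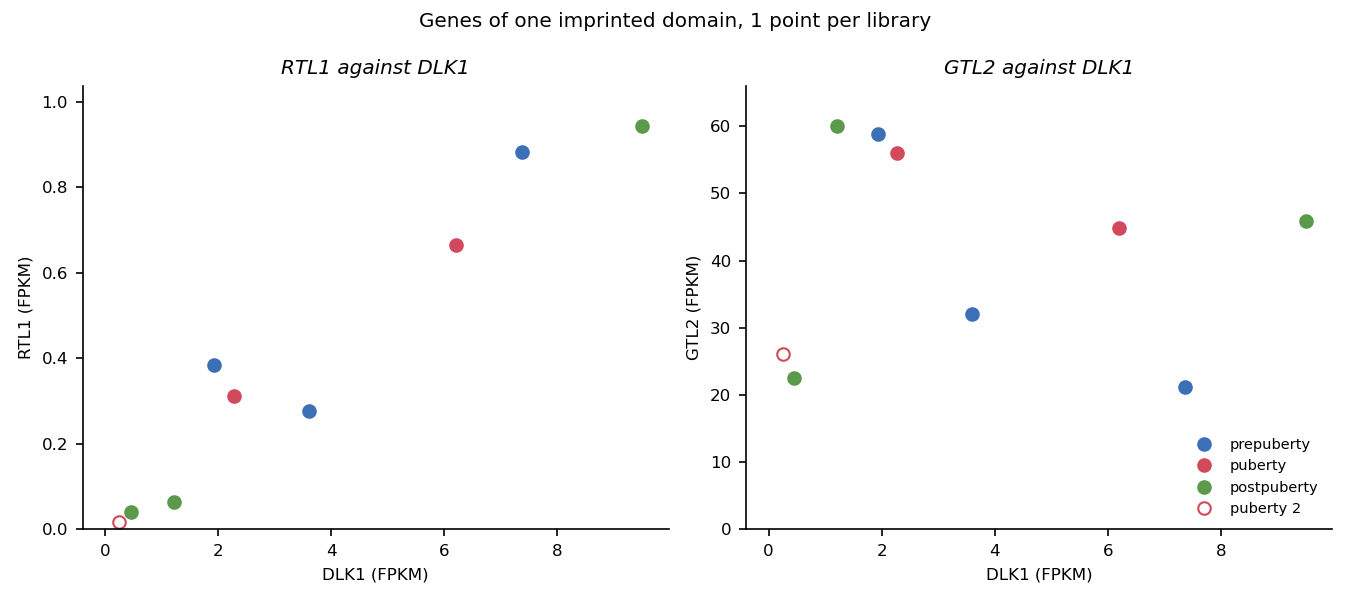
FPKM of RTL1 (left) and of GTL2 (right) against DLK1 (horizontal axis, FPKM), 1 circle per library, coloured by stage, with puberty 2 open. Over the 8 filled circles RTL1 runs from 0.0403 to 0.943 FPKM. RTL1 is highest in the 3 libraries with the highest DLK1, and GTL2 is not. The circles of middle DLK1 do not keep this order for RTL1.

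The plots against DLK1 show the contrast between both neighbours. In the MKRN3 domain, MAGEL2 and NDN, which are also paternally expressed, were above MKRN3 in each of the 8 libraries, while SNRPN was below it in prepuberty 1 (0.427 FPKM) and postpuberty 1 (0.0968). MAGEL2, 42.032 kb away, ranged from 1.71 to 8.39 FPKM over the 8 libraries, and NDN, 86.783 kb away, from 24.6 to 48.5. Neither relation with MKRN3 passed the adjustment. The r was -0.72 for MAGEL2 (exact permutation p = 0.0446, adjusted p = 0.203) and -0.53 for NDN (exact permutation p = 0.183, adjusted p = 0.365). Without the 2 libraries farthest from the median MKRN3, r was -0.71 and -0.45. The 3 further neighbours had adjusted p-values of at least 0.203 as well by the same test. Without the same libraries, their r went from -0.16 to 0.90 for SNURF, from -0.56 to 0.01 for UBE3A and from -0.66 to -0.83 for SNRPN.

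LIN28B, the let-7 inhibitor at chr8:32243775-32379807, was the lowest of the 10 genes. It measured 0.132, 0.479 and 0.282 FPKM in prepuberty 1 to 3, 0.272, 0.0549 and 0.125 in puberty 1 to 3, and 0.118, 0.438 and 0.230 in postpuberty 1 to 3. The stages overlapped throughout. LIN28B alone of the 10 genes did not reach the mean of 0.5 FPKM in any stage that was required for the test. In a fit of all genes without this filter its difference between prepuberty and puberty was 0.17 (SE 0.13, adjusted p = 0.878, limma). Of its 9 annotated transcripts, 5 had a value above 0 in any library, and XM_060419168.1 carried most of the level in 8 of the 9 libraries. Its paralogue LIN28A, the form of early embryonic cells, was listed at 0 in all 9 libraries.

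EED, the subunit of Polycomb repressive complex 2 that reads trimethylated histone H3 and stimulates the methyltransferase, lies at chr21:8788418-8819603. It was the only one of the genes with all puberty libraries above all prepuberty libraries. EED measured 4.19, 3.35 and 3.41 FPKM in prepuberty 1 to 3, 5.17, 5.10 and 4.24 in puberty 1 to 3, and 5.43, 4.10 and 4.73 in postpuberty 1 to 3. The gap was narrow, since the lowest puberty library (4.24) stood next to the highest prepuberty library (4.19), and postpuberty overlapped both. The difference of -0.33 (SE 0.24, adjusted p = 0.838, limma) did not pass the test, nor did that of -0.29 (SE 0.18) without puberty 2. The interval of the latter ran from -0.72 to 0.14. Between prepuberty and postpuberty the difference was -0.31 (SE 0.24, adjusted p = 1, limma).

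The value of EED in puberty 2 came from another transcript. XM_015103070.3 made up 91.4% to 99.4% of EED in the other 8 libraries and was listed at 0 in puberty 2, where XM_015103071.3 alone gave 5.10 FPKM. In the other 8 libraries that transcript ranged from 0.00921 to 0.354 FPKM. GABPA also lost its leading transcript there, but no other took its place. XM_027978692.3 held 55.4% to 81.7% in the 8 libraries and was listed at 0 in puberty 2, where XM_060416180.1 alone gave 0.790 FPKM, against 0.242 to 0.734 elsewhere. The reason for these zeros was not tested.

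CBX7, the Polycomb repressive complex 1 subunit that docks on trimethylated histone H3, lies at chr3:216408077-216431074. It measured 6.89, 14.4 and 9.31 FPKM in prepuberty 1 to 3, 8.53, 6.13 and 9.58 in puberty 1 to 3, and 9.56, 11.8 and 8.89 in postpuberty 1 to 3. The prepuberty libraries alone spanned nearly the whole range, and no pair of stages separated. The summed level differed between prepuberty and puberty by 0.27 (SE 0.31, adjusted p = 0.838, limma) and by 0.10 (SE 0.28) without puberty 2, with an interval from -0.56 to 0.76. It also turned on single prepuberty libraries, being 0.49 (SE 0.32) without prepuberty 1 and 0.01 (SE 0.30) without prepuberty 2.

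The makeup of CBX7, however, set the prepuberty libraries apart. Transcript XM_027968122.3 held 20.9%, 19.1% and 21.9% of CBX7 in prepuberty 1 to 3, and 34.3% to 60.4% in the other 6 libraries. In return XM_042247753.2 held 20.2%, 22.3% and 25.7% in prepuberty and 0% to 17.0% elsewhere, and was listed at 0 in puberty 1 and 2. The third transcript, XM_027968121.3, held 52.3% to 58.9% in prepuberty and 39.6% to 51.1% elsewhere. For each of the 3 transcripts the prepuberty shares thus lay outside the range of all other libraries, although the margin was small for XM_027968121.3.

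This pattern was picked after the values had been seen, and the 3 shares sum to 100% and are not independent. Among 11880 transcripts of 4951 genes with several transcripts, 202 (1.7%) likewise separated prepuberty from the other stages, and 2.95% did so without puberty 2. Any stage could have been picked in this way. Puberty was set apart from the other stages for 2.82% of the transcripts, and for 6.35% without puberty 2. For postpuberty it was 1.68% and 2.95%. The GABPA transcript XM_027978682.3 was among those that set puberty apart, with and without puberty 2. In a limma fit of single transcripts, XM_042247753.2 was higher in prepuberty than in puberty by 1.45 (SE 0.37, adjusted p = 0.831), and by 1.33 (SE 0.37) without puberty 2. It was higher in prepuberty than in postpuberty by 0.67 (SE 0.37, adjusted p = 1). XM_027968122.3 was lower in prepuberty than in puberty, with a difference of -0.74 (SE 0.34, adjusted p = 0.831) that became -0.88 (SE 0.29, adjusted p = 1) without puberty 2. Neither passed the adjustment over 27674 transcripts.

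**Figure D3:**
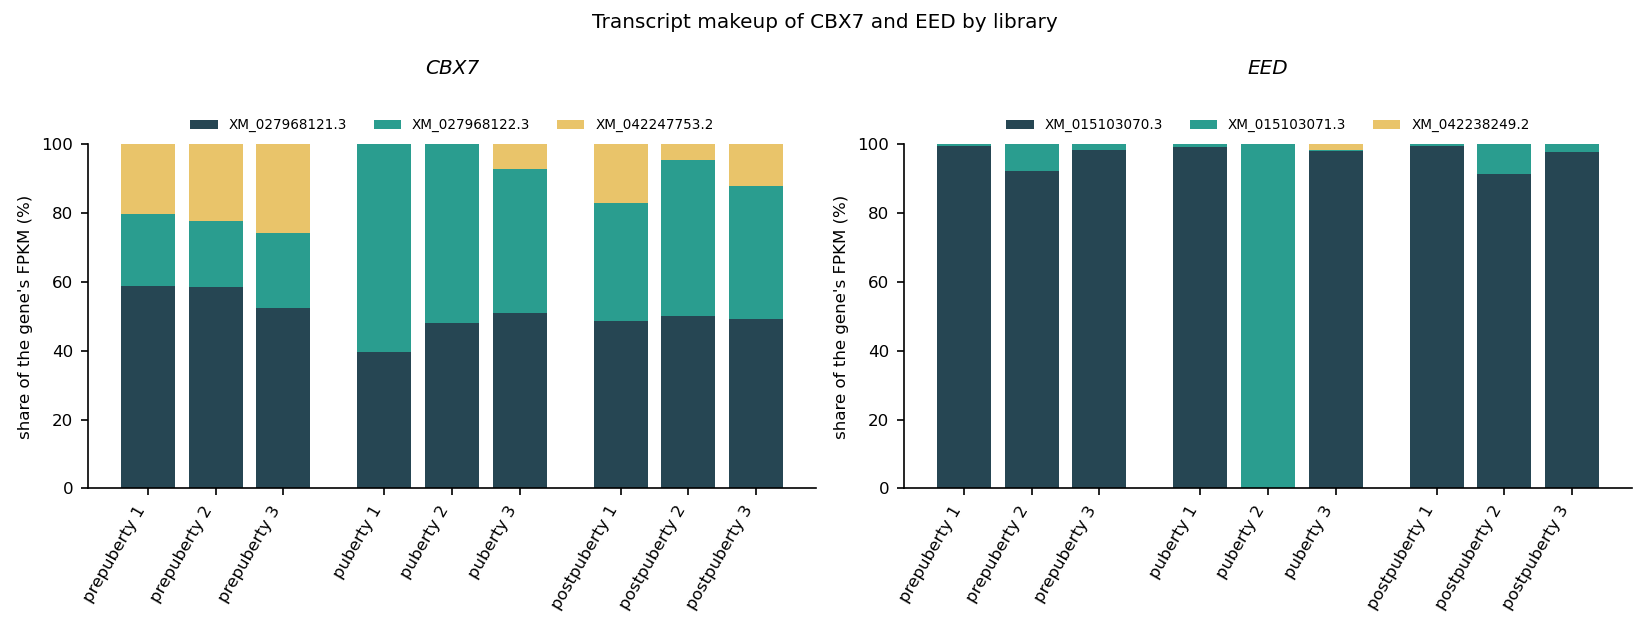
Share of each annotated transcript (vertical axis, % of the gene's FPKM) in CBX7 (left) and EED (right), 1 stacked bar per library, grouped by stage. The CBX7 transcript XM_027968122.3 takes 19.1% to 21.9% in prepuberty and 34.3% to 60.4% elsewhere, and EED is listed under XM_015103071.3 alone in puberty 2.

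The stacked bars show both patterns, that of CBX7 across a stage and that of EED within a single library. SIRT1, the NAD-dependent deacetylase that links energy state to puberty, lies at chr25:23634592-23667450. It measured 2.496, 1.96 and 2.11 FPKM in prepuberty 1 to 3, 2.08, 0.817 and 2.29 in puberty 1 to 3, and 2.72, 1.70 and 2.15 in postpuberty 1 to 3. Only puberty 2 was clearly low, and the stages overlapped. Prepuberty and puberty differed by 0.27 (SE 0.29, adjusted p = 0.838, limma) with all libraries. Without puberty 2, SIRT1 showed the smallest absolute difference of the 9 genes, at 0.00 (SE 0.19), with an interval from -0.45 to 0.45.

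SIRT1 varied with the cell type markers, negatively with those of neurons and positively with those of oligodendrocytes and microglia, and of these relations only Pearson's r with the neuron markers passed the adjustment. The 2 libraries with the lowest summed neuron markers, prepuberty 1 (738 FPKM) and postpuberty 1 (531 FPKM), had the highest SIRT1, while the other 6 libraries had marker sums of 1309 to 1949 FPKM. Over the 8 libraries, r with the mean log2 level of 8 neuron markers was -0.90 (exact permutation p = 0.000769, adjusted p = 0.0308 over 40 relations of the 10 genes with 4 cell type marker lists). Spearman's rho was -0.90 (exact permutation p = 0.00456, adjusted p = 0.0913), which did not pass. Without the 2 libraries farthest from the median marker level r was -0.67, so that the size of the relation rests in part on them. With oligodendrocyte markers r was 0.80 and rho 0.90 (exact permutation p = 0.0197 and 0.00456, adjusted p = 0.141 and 0.0913). With microglia markers r was 0.75 and rho 0.86 (exact permutation p = 0.0319 and 0.0107, adjusted p = 0.143 and 0.107).

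CUX1, GABPA and LIN28B showed relations of similar size that did not pass the adjustment. Their r with the neuron markers was -0.82, -0.81 and 0.79 (exact permutation p = 0.0101, 0.00965 and 0.0233, adjusted p = 0.135, 0.135 and 0.141). Only LIN28B had a positive sign among these 3, and its r was 0.82 without the 2 farthest libraries, against -0.31 for CUX1 and -0.41 for GABPA. LIN28B, however, lay below the filter and ranged only from 0.118 to 0.479 FPKM over the 8 libraries. Its highest value, in prepuberty 2, came from transcripts listed at 0 in every other library. No other relation with neuron, astrocyte, oligodendrocyte or microglia markers had an adjusted p of Pearson's r below 0.05. No neuron marker differed between stages by limma, with 0 of 8 called and 0 of 8 at an unadjusted p below 0.05 in each comparison, with or without puberty 2. With all libraries 7 of the 8 were higher in prepuberty than in puberty (median 0.49, beside 0.14 for all genes) and 3 of 8 were higher in puberty than in postpuberty (median -0.47, beside -0.19). Without puberty 2 both directions turned, with 1 of 8 (median -0.27, beside -0.02) and 6 of 8 (median 0.29, beside -0.03). Of the choroid plexus markers, 1 of 5 had an unadjusted p below 0.05 (limma) between prepuberty and puberty, beside 1.82% of all genes. Their median was -1.01, beside 0.14. Without puberty 2 it was 1 of 5, beside 1.66% (median -1.54, beside -0.02). Of the pituitary markers, 1 of 4 did between prepuberty and postpuberty, beside 0.815% (median -1.36, beside -0.05). Of the hypothalamic markers, 1 of 10 did between prepuberty and puberty. Without puberty 2, 1 of 11 did between puberty and postpuberty (beside 2.11%) and between prepuberty and postpuberty (beside 1.87%). Of the ependymal markers, 1 of 4 did between puberty and postpuberty without puberty 2 (median 0.73, beside -0.03). None of these was called. The part of the neuron, choroid plexus, pituitary, hypothalamic and ependymal markers in the stage differences of the 10 genes was not tested.

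**Figure D4:**
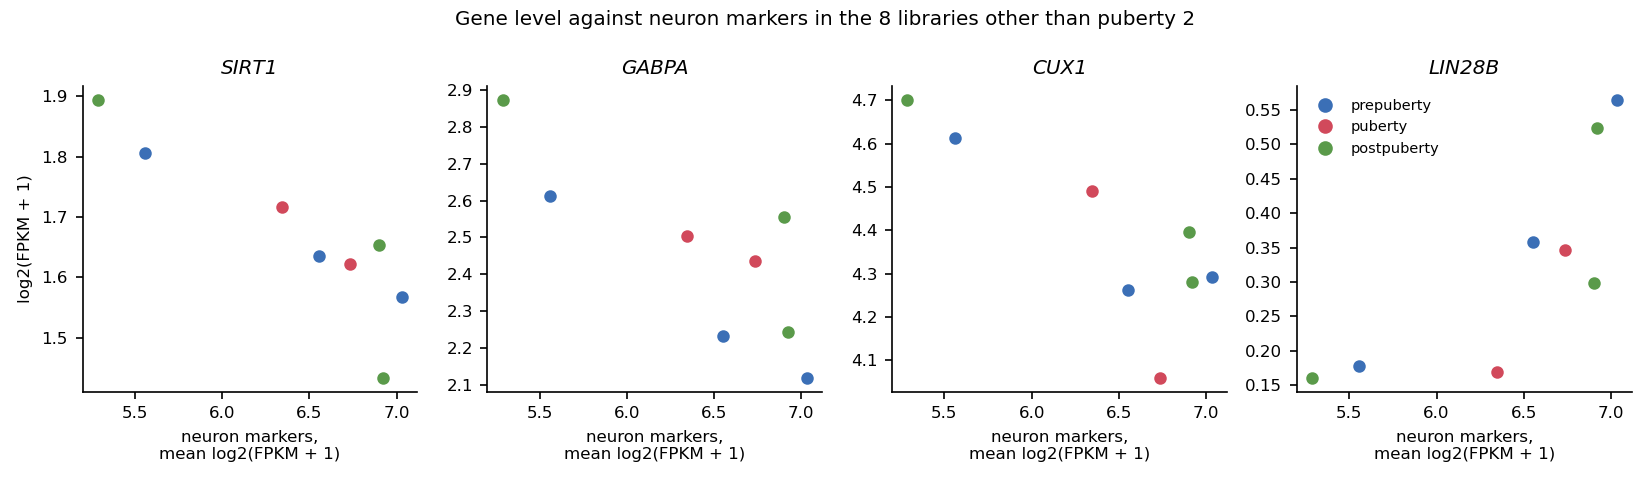
Level of SIRT1, GABPA, CUX1 and LIN28B (vertical axis, log2(FPKM + 1)) against the mean log2(FPKM + 1) of 8 neuron markers (horizontal axis) in the 8 libraries other than puberty 2, coloured by stage. The 2 libraries at the left, from prepuberty and postpuberty, are the highest for SIRT1, GABPA and CUX1 and among the 3 lowest for LIN28B.

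The plots against neuron markers show how far those 2 libraries lie from the others. YY1, a zinc finger factor that can repress or activate and that recruits Polycomb proteins, lies at chr18:62813300-62838683 with a single transcript. It measured 7.48, 9.05 and 7.43 FPKM in prepuberty 1 to 3, 5.87, 4.55 and 8.05 in puberty 1 to 3, and 7.09, 7.48 and 8.18 in postpuberty 1 to 3. Puberty held both the lowest libraries and a high one, and overlapped the other stages. The difference between prepuberty and puberty was 0.35 (SE 0.26, adjusted p = 0.838, limma), and 0.18 (SE 0.18) without puberty 2, with an interval from -0.24 to 0.61. Apart from puberty 2, the coefficient of variation of YY1 was 12.2%, next to that of MKRN3.

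CUX1, a homeodomain factor that exists in several isoforms, was the most abundant of the genes and lies at chr24:35131956-35482743. It measured 23.5, 18.6 and 18.2 FPKM in prepuberty 1 to 3, 15.7, 15.6 and 21.5 in puberty 1 to 3, and 25.0, 18.4 and 20.04 in postpuberty 1 to 3. Puberty 1 was as low as puberty 2, while puberty 3 lay within the range of the other stages. Prepuberty exceeded puberty by 0.19 (SE 0.24, adjusted p = 0.840, limma), and by 0.11 (SE 0.21) without puberty 2. The transcript XM_004020987.5 led in all 9 libraries, with 69.7% to 83.4% of the level in the 8 and 96.6% in puberty 2. Its paralogue CUX2, a marker of upper-layer cortical neurons, had a mean of 1.55 FPKM.

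IRF2BPL, the EAP1 factor that activates the gonadotropin-releasing hormone promoter, lies at chr7:86399466-86403653 with a single transcript. It measured 9.51, 9.58 and 5.92 FPKM in prepuberty 1 to 3, 6.96, 1.51 and 9.79 in puberty 1 to 3, and 8.49, 7.49 and 10.6 in postpuberty 1 to 3. Outside puberty 2 every stage held lower and higher values, and the stages overlapped. With all libraries IRF2BPL had the second largest difference of the 9 genes between prepuberty and puberty, 0.61 (SE 0.50, adjusted p = 0.838, limma), and without puberty 2 it had -0.02 (SE 0.26). The same library carried the difference to postpuberty, which went from -0.71 (SE 0.50, adjusted p = 0.780, limma) to -0.08 (SE 0.26). Its paralogue IRF2BP1 was higher and steadier, at 14.1 to 17.9 FPKM in the 8 libraries.

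GABPA, the DNA-binding subunit of an ETS factor that drives housekeeping and mitochondrial genes, lies at chr1:131262220-131302632. It measured 5.12, 3.34 and 3.70 FPKM in prepuberty 1 to 3, 4.42, 0.790 and 4.67 in puberty 1 to 3, and 6.33, 3.74 and 4.88 in postpuberty 1 to 3. The stages overlapped with and without puberty 2. The difference between prepuberty and puberty was 0.39 (SE 0.45, adjusted p = 0.838, limma) and turned to -0.15 (SE 0.24) without puberty 2. Against postpuberty the puberty level differed by -0.63 (SE 0.45, adjusted p = 0.780, limma) and by -0.09 (SE 0.24) without puberty 2. GABPB1, its activating partner subunit, had a mean of 2.13 FPKM.

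**Figure D5:**
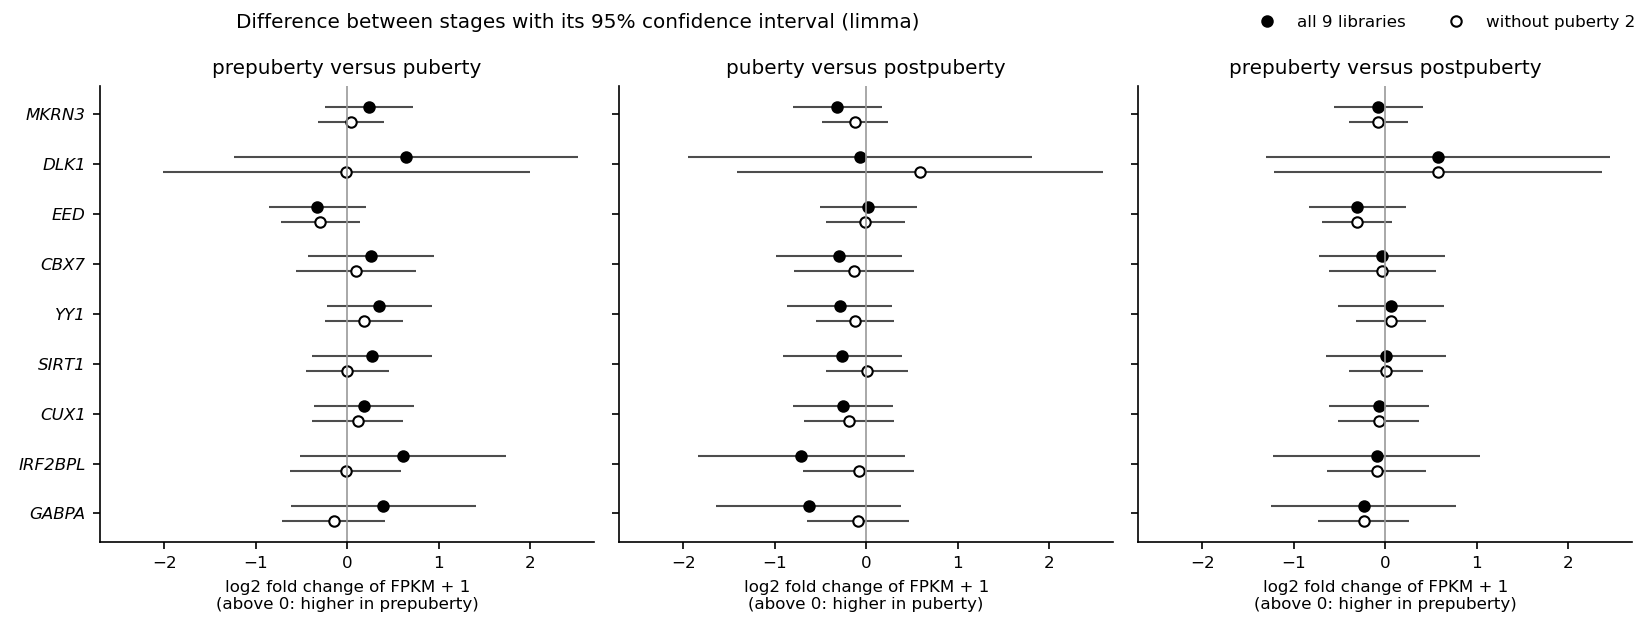
log2 fold change of FPKM + 1 (horizontal axis) for the 9 tested genes in the 3 stage comparisons, with 95% confidence intervals from limma. Filled circles use all 9 libraries and open circles leave out puberty 2. All intervals include 0, and the differences of IRF2BPL and GABPA that involve puberty shrink without that library.

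Across the 9 tested genes, as the plot of fold changes shows, 0 passed the call (adjusted p below 0.05 and at least 1 log2 unit) in any of the 3 comparisons. The background was 0 of 14238 genes (0%) in each, so the test made no call anywhere in the table. At an unadjusted p below 0.05, limma gave 0 of the 9 genes in each comparison, beside 1.82% of all genes for prepuberty versus puberty, 2.14% for puberty versus postpuberty and 0.815% for prepuberty versus postpuberty. Without puberty 2 the count was again 0 of 9 in each comparison, beside 1.66%, 2.11% and 1.87% of all genes. The 95% intervals lay within 1 log2 unit of 0 for 18 of 27 values with all libraries, the others being those of DLK1, IRF2BPL and GABPA, and for 24 of 27 without puberty 2, the others being those of DLK1. For MKRN3 this says little, since the added pseudocount compresses low values. With a pseudocount of 0.1 and all libraries, its interval for prepuberty against puberty ran from -0.56 to 1.82.

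Stages separated completely for few of the genes. EED was the 1 of 9 (11.1%) that did not overlap between prepuberty and puberty, beside 5.16% of all genes, and 11.7% without puberty 2. MKRN3 was the 1 of 9 that did not overlap between puberty and postpuberty, beside 7.32%, and 14% without puberty 2. Between prepuberty and postpuberty 0 of 9 separated, beside 4.57%. With 3 animals a stage, 0.1 is the smallest two-sided p that an exact permutation test can reach.

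The direction of the difference between prepuberty and puberty depended on puberty 2. With all libraries 8 of the 9 genes (88.9%) were higher in prepuberty, with a median difference of 0.27, beside 63.2% and 0.14 for all genes. Without it, 5 of 9 were higher and the median was 0.00, beside 44.7% and -0.02 for all genes. For puberty against postpuberty, 1 of 9 was higher in puberty and the median was -0.29, beside 32.3% and -0.19, and without puberty 2 it was 2 of 9 and -0.09, beside 44.9% and -0.03.

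The genes that work with these 10 were read in the same way from 9 lists of 124 genes, of which 109 were tested. None was called in any comparison. The list of gonadotropin-releasing hormone and kisspeptin genes had 11 of 19 genes above the filter, and its most abundant gene was TAC1, which encodes substance P, at a mean of 26.5 FPKM. Prepuberty 2 alone had 99.5 FPKM of TAC1, and the mean of the other 7 was 16.0. EGR1, an immediate early gene, followed at 8.35 and PDYN, which encodes dynorphin, at 2.68. NKX2-1 stayed at or below 0.262 FPKM. The median difference of this list between prepuberty and puberty was 0.26 with all libraries and -0.09 without puberty 2.

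Among the partners of EED, all 10 genes of Polycomb repressive complex 2 were tested and 0 had an unadjusted p below 0.05. The histone chaperones RBBP4 (mean 45.9 FPKM) and RBBP7 (27.4) led the list. The methyltransferase EZH1 (17.3) exceeded EZH2 (0.529) in each of the 8 libraries, since EZH1 was never below 14.2 and EZH2 never above 1.13 FPKM. The subunit SUZ12 averaged 1.33 FPKM and was listed at 0 in puberty 2. With all libraries 9 of the 10 genes were higher in prepuberty than in puberty (median 0.42), and without puberty 2 it was 6 of 10 (median 0.04), beside 63.2% of all genes (median 0.14) and 44.7% (median -0.02). For puberty against postpuberty 0 of 10 were higher in puberty (median -0.49), and 1 of 10 without puberty 2 (median -0.13). The shares of all genes were 32.3% (median -0.19) and 44.9% (median -0.03).

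The partners of CBX7 in Polycomb repressive complex 1 were led by the ubiquitin ligase RING1 (18.7 FPKM), the scaffold PHC2 (17.9) and the paralogue CBX6 (17.6), with 18 of 19 genes tested and a median of 0.16 between prepuberty and puberty that was close to 0 without puberty 2. The opposing trithorax group, all 13 of whose genes were tested, was led by the core subunits DPY30 (28.8), ASH2L (12.5) and WDR5 (11.2). Its methyltransferases KMT2A and KMT2C averaged 5.64 and 5.53 FPKM, and the demethylase KDM6B averaged 3.60. Its median was 0.26 with all libraries and -0.06 without puberty 2.

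The list around LIN28B had 9 of 14 genes above the filter, most of them general microRNA enzymes, and the microRNAs themselves were not measured. LIN28A, HMGA2, IGF2BP1, IGF2BP3 and TRIM71 stayed below 1 FPKM in every library. DGCR8, which serves the first cleavage of microRNA precursors, averaged 8.82 FPKM, the nuclease DIS3L2 averaged 6.15 and DICER1, the enzyme of the second cleavage, 5.97. The makorin paralogues MKRN1 (12.8) and MKRN2 (17.4) were at least 10.1 and 15.0 FPKM in each of the 8 libraries, well above MKRN3, and NPTX1, a target of MKRN3, ranged from 3.30 to 55.6. In the Notch list, which holds DLK1's pathway, NOTCH3 (10.99), HEY1 (10.1) and NOTCH1 (9.60) led. RBPJ, its DNA-binding effector, was the 1 of 20 with an unadjusted p below 0.05 (limma) between prepuberty and puberty, beside 1.82% of all genes. The difference was 1.69 (SE 0.56, adjusted p = 0.838, limma), and 1.004 (SE 0.34, adjusted p = 1) without puberty 2. RBPJ was listed at 0 in puberty 2. It is named here for its value.

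Around SIRT1, the cytoplasmic deacetylase SIRT2, which is abundant in oligodendrocytes, averaged 65.3 FPKM, the mitochondrial SIRT5 15.7 and the neuronal NAD synthase NMNAT2 11.2. SIRT7, a nucleolar sirtuin named here for its value, was the 1 of 10 with an unadjusted p below 0.05 (limma) between prepuberty and postpuberty, beside 0.815% of all genes. It was also the 1 of 10 between puberty and postpuberty, beside 2.14%. The difference was -0.75 (SE 0.25, adjusted p = 1, limma) in the former and -0.64 (SE 0.25, adjusted p = 0.780) in the latter. Without puberty 2, in which SIRT7 was listed at 0, the latter was -0.50 (SE 0.26, unadjusted p = 0.0949, limma) and the former stayed at -0.75 (SE 0.23). Of the paralogues and partners, IRF2BP1 (16.2), IRF2BP2 (7.20) and GABPB2 (6.63) led. All 8 of these were higher in prepuberty than in puberty with all libraries (median 0.21), and 7 of 8 were without puberty 2 (median 0.03), beside 63.2% of all genes (median 0.14) and 44.7% (median -0.02).

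Over the 8 libraries some of the 10 genes moved together, which is given as a description over libraries that differ in neuron markers and in stage. SIRT1 and GABPA had the highest r of the 45 pairs (0.86), followed by EED and GABPA (0.81) and SIRT1 and CUX1 (0.78). LIN28B ran against SIRT1 (-0.88) and GABPA (-0.87). Of the 12314 genes searched, those most like SIRT1 were PLXND1 (r 0.99) and KCNQ1 (0.98), those most like CUX1 were SKI (0.98) and FGL2 (0.98), and those most like GABPA were NSMCE4A (0.99) and TRAF6 (0.97). For CBX7 they were ZBTB45 (0.99) and ST6GALNAC6 (0.98), and for EED USP31 (0.96) and TRNAU1AP (0.95).

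For the imprinted genes, MKRN3 was most like VASH1 (r 0.97) and EVI2A (0.97), and DLK1 most like ASPA (0.96) and STX7 (0.94). LIN28B was most like CALM2 (0.98) and LRRTM1 (0.97). YY1 was most like RAB3GAP1 (0.96) and MRPS28 (0.95), and IRF2BPL most like NUDT9 (0.96) and LOC101108987 (0.96). As each was the best of so many genes over only 8 libraries, nothing is read from these values.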

How the data were processed

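Reads were trimmed (Trimmomatic), mapped to the build ARS-UI_Ramb_v3.0 (HISAT2), and assembled and quantified per transcript (StringTie) by the authors. The deposited values are FPKM per transcript, as was known from earlier work on this series, although the table is labelled as raw counts. The deposited table gives no depth, and the read totals that the study states per library were not used here, so precision rests on the spread between animals. StringTie divides reads between overlapping transcripts, so the shares of transcripts are estimates. Of 76684 NM_ and XM_ rows, 76682 matched a RefSeq symbol and were summed per gene, and 22600 assembled rows without a RefSeq identifier were not assigned to genes.

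The 14238 genes with a mean of at least 0.5 FPKM in at least 1 stage were tested with limma 3.58.1 (R 4.3.3) on log2(FPKM + 1), with all 9 libraries in 1 fit, a variance trend and two-sided Benjamini-Hochberg adjusted p-values over all genes. A fold change on this scale understates the change of low genes. The authors used edgeR after RUVseq, and edgeR takes counts, so limma was used here on the FPKM values. Relations between genes used the 8 libraries other than puberty 2 with exact two-sided permutation tests (Python 3.11.15, numpy 2.4.6). The fits and relations were tested on simulated data. The simulated fits gave all 9 libraries the spread of the 8 other than puberty 2, so they do not cover a library that stands apart. Named besides the 10 genes were the 3 most abundant genes of each pathway list, a set of known partners, and the 2 genes most correlated with each gene. The genes and lists were chosen with earlier results of these data known. Alternatives were each library left out, a replicate block, 3 scalings, another pseudocount, 2 other filters, library weights, non-coding rows added, and, added after seeing the data, single transcripts and equal totals without puberty 2.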

Additional observations from a re-analysis of the deposited data

How the results depend on the processing

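None of the 27 differences of the 9 tested genes was called under any of 19 other settings, and the smallest adjusted p (limma) was 0.394, with library weights. Leaving out single libraries gave 0 genes called in each comparison over all genes, as did the other scalings, filters and pseudocount. Library weights, which gave puberty 2 a weight of 0.0653 and prepuberty 3 one of 8.13, called 4 genes between prepuberty and puberty and 1 between puberty and postpuberty, none of them described here. The replicate block gave 0 calls in each comparison. By the design the replicate numbers name separate animals. The deviations of same-numbered libraries had r from -0.31 to 0.51. Differently numbered libraries were not compared in this way, so these values do not decide whether the numbers pair libraries. The sign changed for 6 of the 27 differences without puberty 2 and for 8 with library weights. As read counts were not used here, no counting error is given for the low genes MKRN3 and LIN28B.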
